A study of Mus musculus with 6 samples.

Results

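The miR-130 and miR-301 family comprises miRNAs whose 3p arms begin with the same bases and which therefore can pair with the same target sites. Its members here were the rows of the deposited miRNA table named miR-130a, miR-130b, miR-301a or miR-301b, which gave 7 of 1300 rows. These were both arms of miR-130a (mmu-miR-130a-3p and mmu-miR-130a-5p), of miR-130b (mmu-miR-130b-3p and mmu-miR-130b-5p) and of miR-301a (mmu-miR-301a-3p and mmu-miR-301a-5p), and mmu-miR-301b-3p. The rule used names and no measured value, but the family itself was picked with earlier results of these data known. Of the 7, 5 passed the filter of a mean of at least 1 RPM (reads per 1000000 reads) and were tested, and miR-301a-5p and miR-301b-3p were below it.

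Small RNA was sequenced from whole ovaries of female C57BL/6J mice in 3 libraries from hypobaric hypoxia and 3 from normal pressure. Mice of the hypobaric hypoxia group were housed in a decompression chamber at 43.12 kPa and 8.1 kPa O2, which simulates 6500 m (the descriptions give 5000 m). Mice of the normal pressure group lived at the altitude of Lanzhou, 1588 m, with a pressure of 83.56 kPa and 17.8 kPa O2. Both groups were synchronized with oral levonorgestrel and ethinylestradiol, for which the labels give doses of 0.1 and 0.02 mg/kg in the hypobaric group alone. Age was 8 weeks and exposure 15 days per the design text. The library descriptions have ages from 6 weeks and exposures of 15, 16 and 17 days by library number. The labels give 12 h of light and 12 h of dark, but 13 and 14 h of dark for normal-pressure libraries 2 and 3. Each group had 15 mice, and the labels do not say whether a library holds 1 animal or a pool, so p-values here reflect only how much these libraries vary, some of which may be technical. In a whole organ, fewer cells of a type and less RNA per cell cannot be told apart.

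A miRNA guides the silencing complex to messenger RNAs that match its bases 2 to 8, the seed, and lowers their translation and stability. In pulmonary vessels the miR-130 and miR-301 family is known as hypoxia-responsive: it represses the nuclear receptor PPARγ in endothelial and smooth muscle cells and promotes vessel remodelling in pulmonary hypertension. The ovary also remodels its vessels, with each follicle and corpus luteum, and the comparison asks whether the family differs there after low-pressure hypoxia.

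The mature sequences of the abundant 3p arms, from RefSeq on GRCm38.p6, show what the members share and where they part. Capitals mark bases 2 to 8.
miR-130a-3p: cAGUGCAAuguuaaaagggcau
miR-130b-3p: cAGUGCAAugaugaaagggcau
miR-301a-3p: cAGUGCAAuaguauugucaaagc
The seed is the same in these 3 arms. miR-130a-3p and miR-130b-3p differ at 2 of 22 bases (U11A and A13G, with the base of miR-130a-3p first and positions counted from the 5′ end), and their longest shared run is 10 bases. miR-130a-3p and miR-301a-3p differ at 10 of the first 22 bases. RefSeq lists 7 mature mouse miRNAs with this seed, and the rows of the table that matched them by name were the 3 above. The 5p arms carry other seeds.
miR-130b-5p: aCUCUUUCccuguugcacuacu
miR-130a-5p: gCUCUUUUcacauugugcuacu
miR-301a-5p: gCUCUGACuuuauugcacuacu
The sources used here do not state how reads with a mismatch were assigned, so some miR-130a-3p and miR-130b-3p reads could be assigned to either name.

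The precursors lie at 3 places in the genome (GRCm38, GENCODE vM21, counted from 1). That of miR-130a is on chromosome 2, chr2:84741115-84741178, minus strand, outside any other annotated gene. That of miR-301a, chr11:87113004-87113089, plus strand, lies in an intron of Ska2, which encodes a spindle and kinetochore protein, and on the same strand. Those of miR-130b (chr16:17124061-17124142) and miR-301b (chr16:17124400-17124496) lie 257 bases apart on the minus strand, both in an intron of the protein-coding gene 2610318N02Rik. The miR-130a and miR-130b hairpins are shown with both mature arms in capitals, the 5p arm first, because the balance of the arms turned out opposite in them.
Mir130a: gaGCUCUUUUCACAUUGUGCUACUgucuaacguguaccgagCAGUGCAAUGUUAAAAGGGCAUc
Mir130b: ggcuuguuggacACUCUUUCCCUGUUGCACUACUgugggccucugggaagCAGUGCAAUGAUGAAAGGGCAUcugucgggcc

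The values imply totals of 20800777 to 22559146 reads per library, with 6852198 to 8701696 miRNA reads. At these totals 3 reads were worth 0.133 to 0.144 RPM. RPM is scaled to the implied total, of which miRNA reads were a larger part in every hypobaric library. Their share was 41.1%, 38.0% and 38.1% in hypobaric libraries 1, 2 and 3, against 36.3%, 30.4% and 35.0% in those at normal pressure. Scaled to the miRNA total instead, the log2 change of miR-130a-3p was 0.70, against 0.90 in RPM. Hypobaric library 3 and normal-pressure library 2 deviated from their group means in a similar way. Over the 475 tested miRNAs, these deviations had a Pearson correlation of 0.556, the highest of the 9 cross-group pairs. Some pair had to be the highest, and this value does not show that either library is an outlier. Some values below are also given without these 2 libraries. Values by library follow the order of libraries 1, 2 and 3 of a group. The gonad-enriched miR-202 arms, which mark the labelled tissue, summed to 2191 to 3462 RPM under hypobaric hypoxia and 998 to 1349 RPM at normal pressure. Both arms rose in limma, miR-202-5p by 1.15 and miR-202-3p by 1.81 on the log2 scale (adjusted p = 0.0114 and 0.0254), and passed in 17 and 15 of 20 alternatives. limma called 4.84% of all tested miRNAs. Of the alternative tests, edgeR called 1 of the 2 arms (5.26% of all tested). DESeq2 called both (15.1% of the miRNAs that it gave an adjusted p). Their part in the levels of the family was not tested. The hepatocyte miRNA miR-122-5p was at most 1.51 RPM under hypobaric hypoxia and 1.30 RPM at normal pressure. The neural miR-124-3p and miR-9-5p had log2 changes of 0.19 and 0.18.

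No member of the family passed the limma test between hypobaric hypoxia and normal pressure. The miR-130 3p arms had the largest log2 changes among the 5 tested members, 0.90 for miR-130a-3p and 1.03 for miR-130b-3p, while miR-301a-3p, with the same seed, was at -0.03. In limma, with Benjamini-Hochberg adjustment over all 475 tested miRNAs and a threshold of 0.05, 0 of 5 tested members were called, against 4.84% of all tested miRNAs. For 2 of the 5 the unadjusted p was under 0.05, as for 20.2% of all tested. The edgeR quasi-likelihood test on recovered reads called 0 of 5 members (5.26% of all tested) and DESeq2 called 2 of the 4 that it gave an adjusted p (15.1%), which were miR-130a-3p and miR-130b-3p. The groups did not overlap in 2 of the 5, against 26.7% of all tested. Over all 475, 15 miRNAs were higher and 8 lower, and with 4 other scalings 12 were higher and 14 to 19 lower. Over all tested miRNAs the log2 changes had a median of 0.15, or of -0.05 to 0.01 with those scalings. Relative to that median, miR-130b-3p was at 0.88, miR-130b-5p at 0.25, miR-130a-5p at -0.07 and miR-301a-3p at -0.18.

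**Figure D1:**
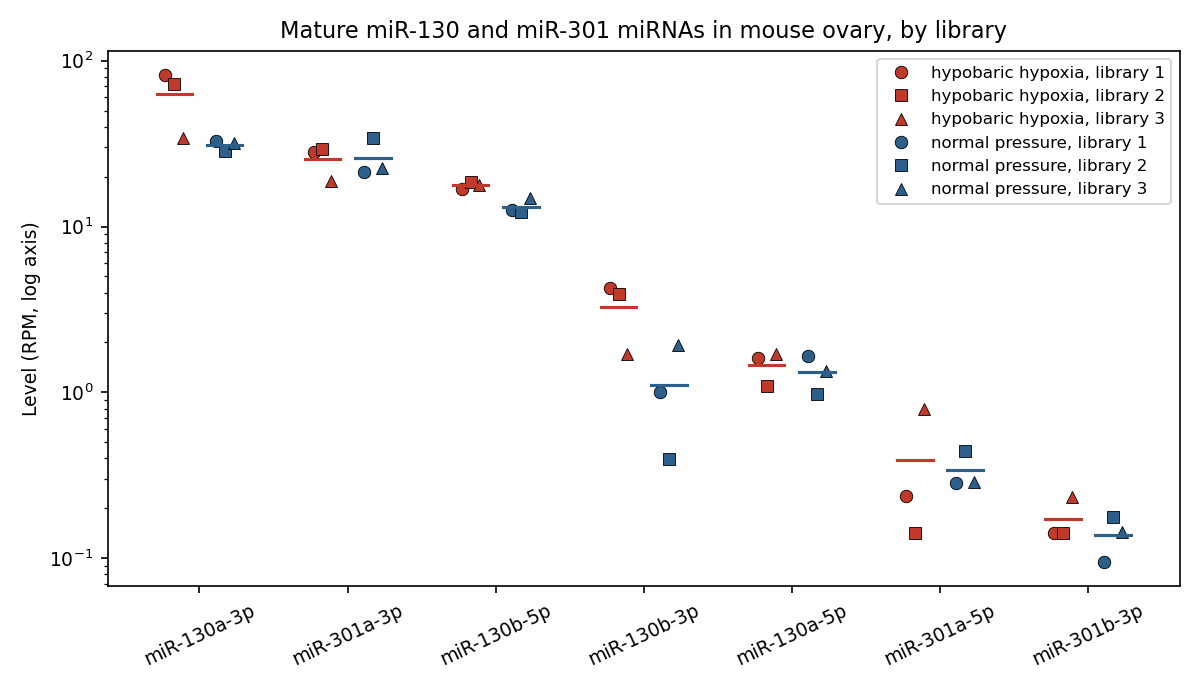
Level in RPM on a log axis (y) of the 7 rows (x) in each library, hypobaric hypoxia in red and normal pressure in blue, with a bar at the mean of 3 libraries. miR-130a-3p and miR-130b-3p are high in hypobaric libraries 1 and 2 (81.8 and 71.9 RPM, and 4.25 and 3.91 RPM), while library 3 lies near the normal-pressure libraries.

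mmu-miR-130a-3p was the most abundant member, at place 160 of all 1300 rows by mean level. It was at 81.8, 71.9 and 34.3 RPM in the hypobaric libraries, against 32.6, 28.7 and 31.7 RPM in the normal-pressure libraries. All hypobaric libraries lay above all normal-pressure ones, but library 3 only barely: its 728 reads gave a 95% Poisson interval of 31.8 to 36.9 RPM, which overlaps the 30.2 to 35.1 RPM of normal-pressure library 1 (these intervals cover counting error only). The means were 62.7 ± 25.1 RPM under hypobaric hypoxia and 31.0 ± 2.04 RPM at normal pressure (SD, n = 3). On the log2(RPM + 1) scale, where changes of low miRNAs come out too small, the change was 0.90 ± 0.32 (SE), with a 95% confidence interval from 0.19 to 1.62, unadjusted p = 0.0192 and limma adjusted p = 0.148. Relative to the median change of all tested miRNAs, 0.15, this was 0.75.

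In limma, miR-130a-3p was past the threshold when hypobaric library 3 was left out. That library had the lowest hypobaric value of miR-130a-3p, so leaving it out had to raise the change. Without that library the log2 change was 1.28 with limma adjusted p = 0.0106, and 7.16% of all tested miRNAs were called. Without it and normal-pressure library 2 the change was 1.23 with adjusted p = 0.00722, and 9.89% were called. Over all 20 alternatives the change was positive, between 0.66 and 1.28, and the adjusted p ran from 0.00722 to 0.436. The log2 level of miR-130a-3p in hypobaric library 3 minus its mean in libraries 1 and 2 was -1.14. Of the 475 tested miRNAs 8 had a lower value of this difference, and the median was -0.11.

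mmu-miR-130b-3p was a minor member. It was at 4.25, 3.91 and 1.70 RPM in the hypobaric libraries, against 1.00, 0.399 and 1.92 RPM in the normal-pressure libraries. Hypobaric library 3 lay below normal-pressure library 3, so the groups overlapped. These levels rest on 90, 82 and 36 reads under hypobaric hypoxia and on 21, 9 and 40 reads at normal pressure. The Poisson intervals of libraries 3 overlapped, 1.19 to 2.35 RPM under hypobaric hypoxia and 1.37 to 2.62 RPM at normal pressure. The means were 3.28 ± 1.39 RPM under hypobaric hypoxia and 1.11 ± 0.768 RPM at normal pressure (SD, n = 3), with a log2 change of 1.03 ± 0.34 (SE), 95% interval 0.26 to 1.80 and limma adjusted p = 0.133. Hypobaric library 3 was again the lowest of its group, so leaving it out had to raise the change. Without that library the log2 change was 1.33 (limma adjusted p = 0.0465). Without it and normal-pressure library 2 the change was 1.07 (limma adjusted p = 0.0391). Over 19 alternatives the adjusted p ran from 0.0391 to 0.378. DESeq2 gave an adjusted p of 0.0387 for miR-130a-3p and 0.0490 for miR-130b-3p, with log2 changes of 0.82 and 1.42 on its own scale.

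mmu-miR-301a-3p, from the intron of Ska2, had a different pattern. It was at 28.0, 29.4 and 18.8 RPM in the hypobaric libraries, against 21.4, 34.3 and 22.5 RPM in the normal-pressure libraries. The lowest and the highest of the 6 values came from hypobaric library 3 and normal-pressure library 2, and the groups overlapped. The means were 25.4 ± 5.74 RPM under hypobaric hypoxia and 26.1 ± 7.13 RPM at normal pressure (SD, n = 3). The log2 change was -0.03 ± 0.26 (SE), limma adjusted p = 0.936, and its 95% interval, -0.63 to 0.57, leaves room for a change in either direction. Without hypobaric library 3 and normal-pressure library 2 the log2 change was 0.37 (limma adjusted p = 0.314).

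**Figure D2:**
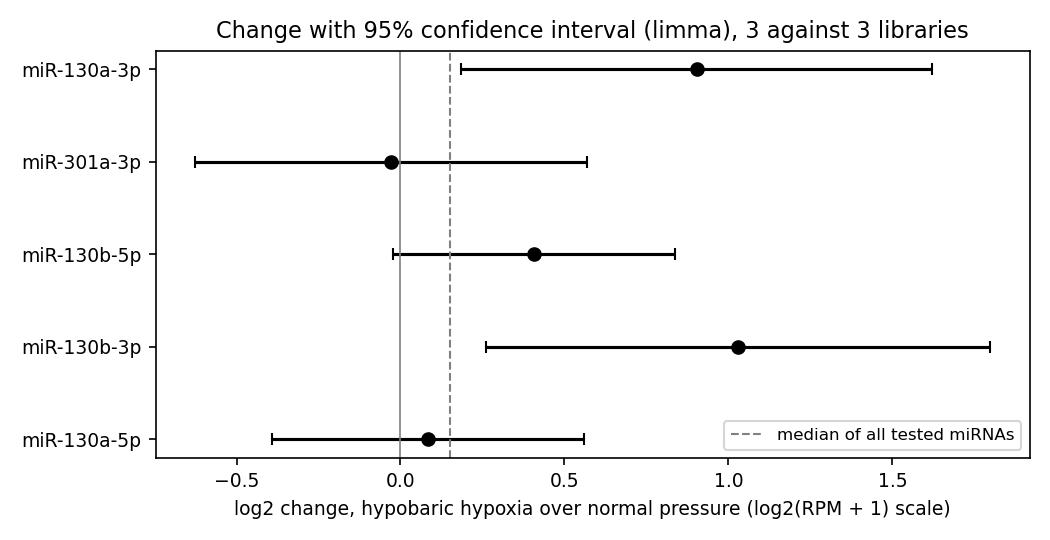
Log2 change of the 5 tested rows, hypobaric hypoxia over normal pressure (x, log2(RPM + 1) scale), with 95% confidence intervals from limma; the dashed line is the median of all tested miRNAs, 0.15. The unadjusted intervals of miR-130a-3p (0.19 to 1.62) and miR-130b-3p (0.26 to 1.80) lie above 0, and those of the other 3 rows include it.

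The 5p arms and miR-301b-3p had smaller folds between the group means than the 3p arms of miR-130a and miR-130b. miR-130b-5p was at 16.8, 18.6 and 17.9 RPM in the hypobaric libraries, against 12.6, 12.2 and 14.8 RPM in the normal-pressure libraries. The groups did not overlap, and hypobaric library 3 lay between the other two here. The means were 17.8 ± 0.951 RPM under hypobaric hypoxia and 13.2 ± 1.37 RPM at normal pressure (SD, n = 3), with a log2 change of 0.41 ± 0.19 (SE), 95% interval -0.02 to 0.84 and limma adjusted p = 0.274. Its change stayed positive in all 20 alternatives, from 0.17 to 0.48. miR-130a-5p averaged 1.47 ± 0.323 RPM under hypobaric hypoxia and 1.33 ± 0.346 RPM at normal pressure (SD, n = 3), with a log2 change of 0.08 (limma adjusted p = 0.820) whose sign turned with 3 of the 4 other scalings, edgeR and DESeq2. miR-301a-5p, on 3 to 17 reads, was at 0.236, 0.143 and 0.800 RPM in the hypobaric libraries, against 0.286, 0.443 and 0.288 RPM in the normal-pressure libraries. miR-301b-3p was at 0.142, 0.143 and 0.235 RPM in the hypobaric libraries, against 0.095, 0.177 and 0.144 RPM in those at normal pressure. That is 2 to 5 reads a library, near the value of 3 reads, so a difference of miR-301b-3p was not detectable at this depth.

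The members were ordered by their group means, on a scale of RPM; the 6 mature sequences in RefSeq are of 22 or 23 bases. Under hypobaric hypoxia the order was miR-130a-3p, miR-301a-3p, miR-130b-5p, miR-130b-3p, miR-130a-5p, miR-301a-5p and miR-301b-3p, with overlapping ranges between miR-130b-3p and miR-130a-5p and between the last pair. At normal pressure miR-130a-5p stood before miR-130b-3p. There the ranges of miR-130a-3p and miR-301a-3p overlapped, as did those of miR-130a-5p and miR-130b-3p and those of miR-130b-3p and miR-301a-5p.

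Seen as a pool of 1 seed, the 4 listed 3p arms summed to 114, 105 and 55.0 RPM in the hypobaric libraries, against 55.1, 63.5 and 56.2 RPM in the normal-pressure libraries. Libraries 1 and 2 of the hypobaric group were above every normal-pressure library and library 3 was below them all. The mean sum was 91.5 ± 31.9 RPM under hypobaric hypoxia and 58.3 ± 4.57 RPM at normal pressure (SD, n = 3). The difference was 33.2 RPM, or 54.1 RPM without hypobaric library 3 and normal-pressure library 2. No test was made of this sum.

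The shares of miR-130a-3p and miR-301a-3p in the pool did not overlap between the groups, library 3 included. Those of miR-130b-3p and miR-301b-3p overlapped. For scale, the levels of 26.7% of all tested miRNAs did not overlap. That rate is of single levels, and none was computed for shares of a pool or for ratios between miRNAs. miR-130a-3p held 71.6%, 68.3% and 62.3% of the summed 3p reads in the hypobaric libraries, against 59.1%, 45.2% and 56.4% in the normal-pressure libraries. miR-301a-3p held 24.5%, 27.9% and 34.2% in the hypobaric libraries, against 38.9%, 53.9% and 39.9% in the normal-pressure libraries. The ratio of miR-130a-3p to miR-301a-3p does not depend on the scaling to RPM. It was 2.92, 2.45 and 1.82 in the hypobaric libraries, against 1.52, 0.837 and 1.41 in the normal-pressure libraries. The mean ratio was 2.40 ± 0.551 under hypobaric hypoxia and 1.26 ± 0.367 at normal pressure (SD, n = 3). The groups did not overlap in this ratio, which was chosen after the values were seen and was not tested. miR-130a-3p and miR-301a-3p made up most of the pool, so their shares and the ratio show the same pattern. The shares were not tested either.

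**Figure D3:**
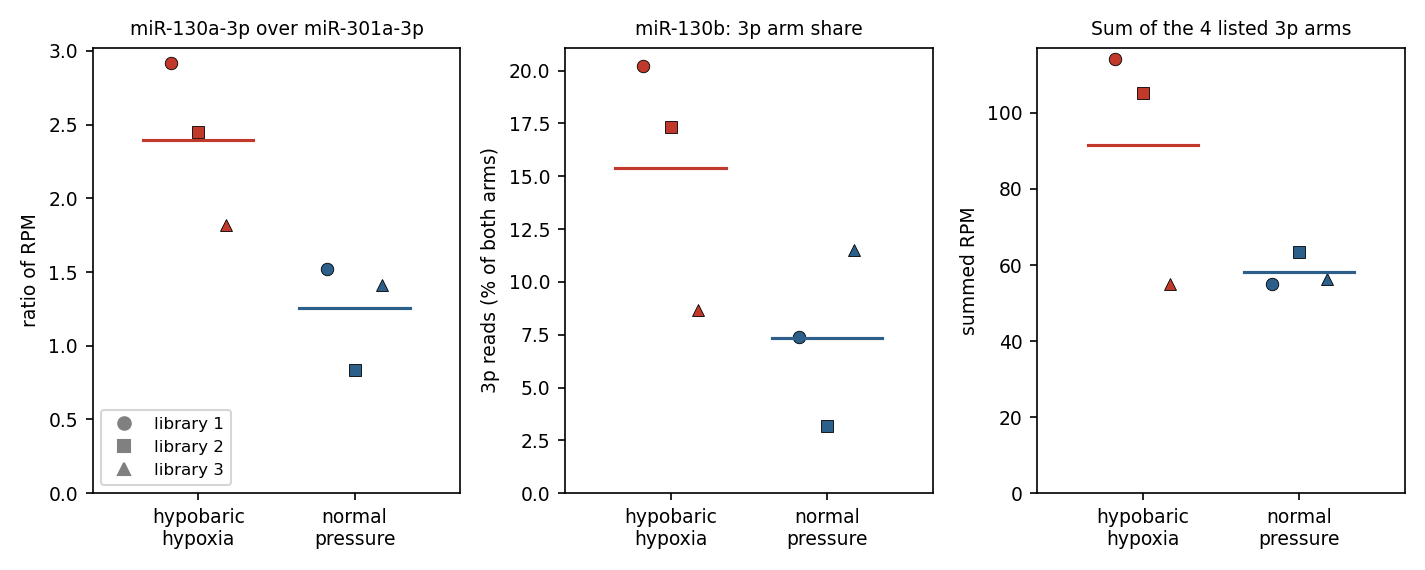
Per library, with a bar at the mean of 3: the ratio of miR-130a-3p to miR-301a-3p (left), the 3p share of miR-130b reads (middle, % of both arms) and the summed RPM of the 4 listed 3p arms (right), hypobaric hypoxia in red and normal pressure in blue. The ratio, chosen after the values were seen and not tested, separates the groups (lowest hypobaric value 1.82, highest normal-pressure value 1.52). In the other panels hypobaric library 3 lies among or below the normal-pressure libraries.

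The arms of miR-130b were used in the reverse of the proportion seen in miR-130a and miR-301a. In miR-130a the 3p arm held 95.3% to 98.5% of both arms' reads under hypobaric hypoxia and 95.1% to 96.7% at normal pressure, and in miR-301a it held 95.9% to 99.5% and 98.7% in every normal-pressure library. In miR-130b the 3p arm, which carries the family seed, was the minor arm in all 6 libraries. It held 20.2% (95% Wilson interval 16.8% to 24.2%), 17.3% (14.2% to 21.0%) and 8.65% (6.32% to 11.7%) in the hypobaric libraries. At normal pressure it held 7.37% (4.87% to 11.0%), 3.16% (1.67% to 5.89%) and 11.5% (8.58% to 15.3%) in libraries 1, 2 and 3. Hypobaric libraries 1 and 2 were above all normal-pressure libraries and hypobaric library 3 was below normal-pressure library 3. A more abundant 5p arm is common in these data: it was found in 67 of the 119 miRNAs with both arms tested.

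In both miR-130 loci the 3p arm had the larger change. The log2 change of the 3p arm minus that of the 5p arm was 0.82 in miR-130a and 0.62 in miR-130b, against a median of -0.02 over the 119 pairs. The difference was larger in 8 and in 11 of the 119 pairs. This is a description, with no test, and miR-130a-5p rests on 22 to 36 reads a library. The size of the difference depends on the 1 added to RPM before the log. With 0.1 added instead, the 3p and 5p changes were 0.92 and 0.14 in miR-130a and 1.61 and 0.43 in miR-130b. The difference was then the larger in miR-130b. In both loci the 3p share overlapped between the groups, which were apart in 19.3% of the pairs. Over the 6 libraries the Pearson correlation of log2(RPM + 1) was 0.90 between miR-130a-3p and miR-130b-3p, which come from different chromosomes, and the arms of one hairpin gave 0.83 in miR-130b and 0.04 in miR-130a. It was 0.32 between miR-130a-3p and miR-301a-3p. These 6 points share the contrast between the groups and the libraries that stood apart.

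**Figure D4:**
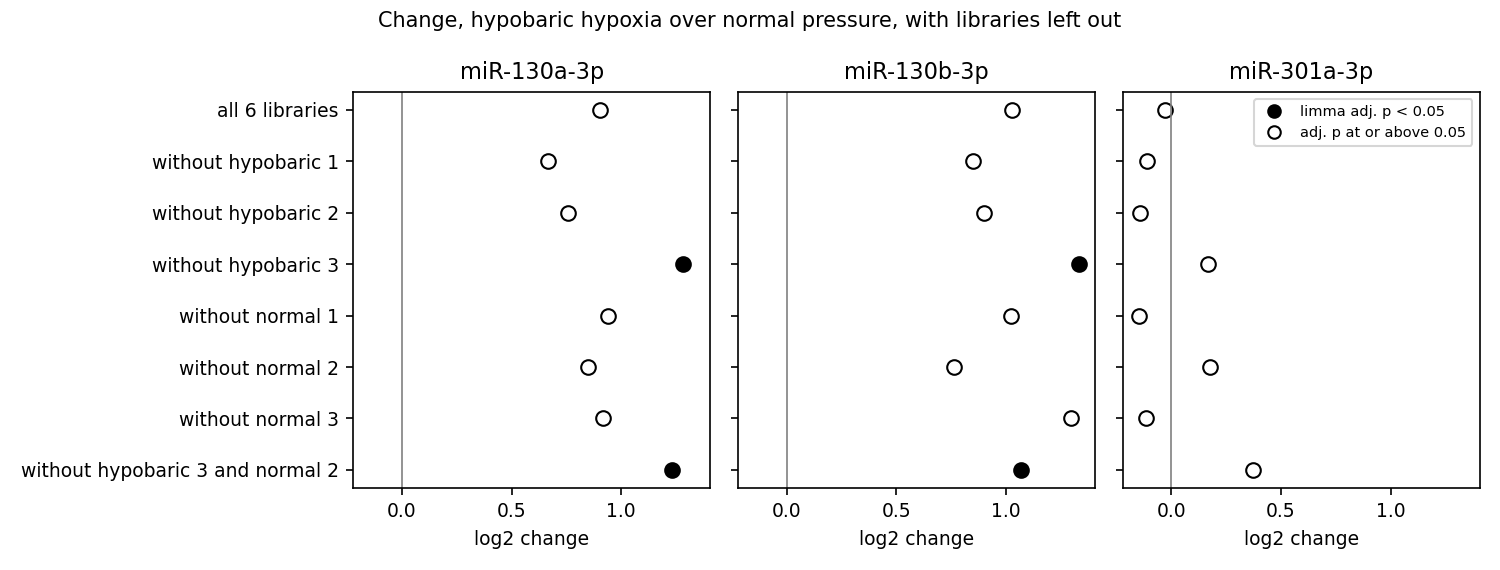
Log2 change, hypobaric hypoxia over normal pressure (x), of the 3p arms of miR-130a, miR-130b and miR-301a with all libraries and with libraries left out (rows); filled points have a limma adjusted p under 0.05. miR-130a-3p and miR-130b-3p pass without hypobaric library 3 (1.28 and 1.33) and without it and normal-pressure library 2 (1.23 and 1.07), and miR-301a-3p is at 0.17 and 0.37 in the same fits. Hypobaric library 3 had the lowest hypobaric value of each arm shown, so leaving it out alone had to raise each change.

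The miRNAs whose pattern over the 6 libraries was most like each 3p arm were sought among the other 443 annotated tested miRNAs. Closest to miR-130a-3p were miR-1193-3p, miR-106b-5p and miR-19a-3p, with Pearson correlations of 0.99, 0.98 and 0.98 (n = 6 libraries that share the contrast between the groups; a description, with no test). miR-106b-5p, of a proliferation-linked cluster in an Mcm7 intron, was at 27.6, 25.2 and 11.9 RPM in the hypobaric libraries, against 11.3, 7.49 and 10.6 RPM in the normal-pressure libraries. It too was high in hypobaric libraries 1 and 2 and near the normal-pressure level in library 3. Closest to miR-130b-3p were miR-107-3p, miR-467d-3p and miR-17-5p, each at 0.98. miR-17-5p, of the miR-17 to miR-92 cluster, was at 70.2, 75.6 and 35.3 RPM in the hypobaric libraries, against 28.9, 18.8 and 31.6 RPM in the normal-pressure libraries. None of these 6 passed in limma, with adjusted p from 0.0927 to 0.377. Closest to miR-301a-3p were miR-32-5p, miR-33-5p, which lies in the sterol regulator gene Srebf2, and miR-339-3p, with correlations of 0.92, 0.87 and 0.85 and log2 changes from -0.37 to -0.09.

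In pulmonary vessels, miR-204 and the miR-424 and miR-503 pair (miR-322 and miR-503 in mice) are known as miRNAs that lie downstream of the family through PPARγ, and fall when it rises. None of these 3 passed in ovary with limma, edgeR or DESeq2. Those methods called 4.84%, 5.26% and 15.1% of the miRNAs to which each gave an adjusted p. An unadjusted limma p under 0.05 occurred in 0 of the 3, against 20.2% of all tested. At these shares 0 of 3 does not set the 3 miRNAs apart from the rest. miR-204-5p was at 3093, 1485 and 2829 RPM in the hypobaric libraries, against 2818, 2603 and 2981 RPM in the normal-pressure libraries; its log2 change was -0.25 ± 0.26 (SE; limma adjusted p = 0.613). Hypobaric library 2 alone was low. miR-322-5p was at 13272, 12992 and 8117 RPM in the hypobaric libraries, against 11173, 8300 and 9140 RPM in the normal-pressure libraries; its log2 change was 0.24 ± 0.21 (SE; adjusted p = 0.524). miR-503-5p was at 50.3, 50.0 and 20.6 RPM in the hypobaric libraries, against 26.2, 37.2 and 29.1 RPM in the normal-pressure libraries; its log2 change was 0.29 ± 0.35 (SE; adjusted p = 0.645). miR-322-5p and miR-503-5p, of 1 cluster, were lowest in hypobaric library 3, as were miR-130a-3p, miR-130b-3p and miR-301a-3p within their group; library 3 was the lowest hypobaric library in 49.7% of all tested miRNAs.

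Of a wider list of 23 miRNAs studied in pulmonary hypertension, 22 were tested: 1 rose, 1 fell, and 20 were not past the threshold in limma, which called 4.84% of all tested miRNAs. An unadjusted p under 0.05 occurred in 8 of the 22, against 20.2% of all tested. edgeR called 2 of the list (5.26% of all tested) and DESeq2 called 7 (15.1% of the miRNAs that it gave an adjusted p). The median log2 change of the list was 0.09, against 0.15 over all tested miRNAs. miR-210-3p, induced by hypoxia-inducible factors, rose by 1.49 ± 0.23 (SE) on the log2 scale with limma adjusted p = 0.00679. miR-21a-5p, linked to vessel wall growth and to the corpus luteum, fell by 1.17 with limma adjusted p = 0.0148, and was lower in all 20 alternatives and past the threshold in 18.

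**Figure D5:**
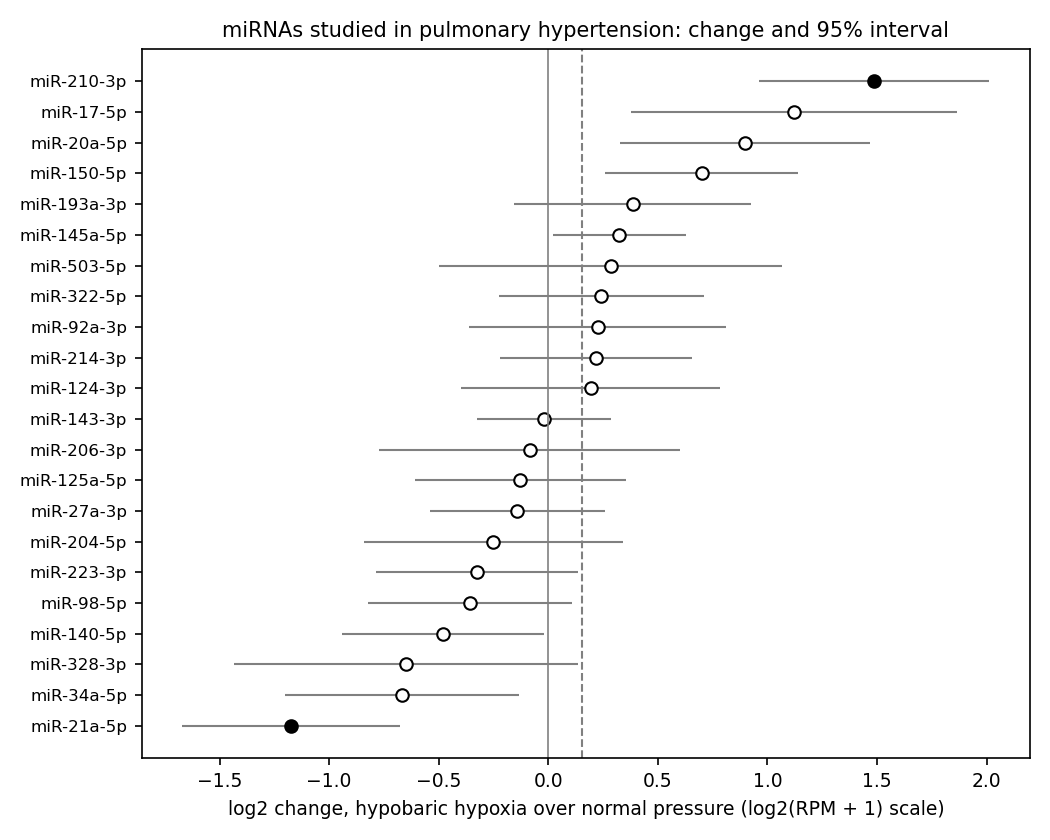
Log2 change, hypobaric hypoxia over normal pressure (x, log2(RPM + 1) scale), with 95% confidence intervals, of the 22 tested miRNAs studied in pulmonary hypertension; filled points passed in limma and the dashed line is the median of all tested miRNAs, 0.15. miR-210-3p (1.49) and miR-21a-5p (-1.17) are the filled points at either end.

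Marker miRNAs of vessel and blood cells were read beside the family. In the endothelial list 0 of 4 tested members passed in limma, which called 4.84% of all tested miRNAs. The list summed to 17631 to 21750 RPM under hypobaric hypoxia and 15627 to 20568 RPM at normal pressure. miR-126a-3p, the endothelial miRNA of the Egfl7 gene, had a log2 change of 0.16 ± 0.14 (SE), and miR-221-3p of 0.29 ± 0.26 (SE). In the smooth muscle list 0 of 4 passed, with sums of 30114 to 35311 RPM under hypobaric hypoxia and 28050 to 36777 RPM at normal pressure. The groups did not overlap in miR-145a-5p and miR-145a-3p, as in 26.7% of all tested miRNAs. These arms had log2 changes of 0.32 and 0.46 and limma adjusted p of 0.227 and 0.239.

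Red-cell miRNAs moved with the groups. In the erythroid list 4 of 6 tested members rose in limma, which called 4.84% of all tested miRNAs in either direction. Its 7 rows summed to 9459 to 15085 RPM under hypobaric hypoxia and 726 to 1577 RPM at normal pressure, and only miR-144-5p was at 0 in a library. miR-451a rose by 3.63 ± 0.31 (SE) and miR-486b-3p by 2.11 ± 0.26 (SE) on the log2 scale (limma adjusted p = 0.000215 and 0.00215). In hypobaric library 3, where miR-130a-3p was near the normal-pressure level, miR-451a was at 11328 RPM, between the 14917 RPM of library 1 and the 9330 RPM of library 2. Over the 6 libraries, which share the contrast between the groups, the Pearson correlation with miR-451a was 0.77 for miR-130a-3p, 0.77 for miR-130b-3p and 0.86 for miR-130b-5p, and 0.41 for miR-130a-5p and -0.15 for miR-301a-3p. With miR-210-3p the correlations were 0.88, 0.85, 0.88, 0.07 and 0.18 in the same order of members. They were 0.42, 0.45, 0.31, 0.89 and -0.50 with miR-126a-3p, and 0.19, 0.20, -0.15, 0.75 and -0.42 with miR-143-3p. A high correlation with miR-451a was thus not particular to it. The part of red-cell RNA in the levels of the family was not tested. The leukocyte list, with 0 of 6 called, summed to 1956 to 2376 RPM under hypobaric hypoxia and 1339 to 2119 RPM at normal pressure. There the log2 change was 0.70 for the lymphocyte miRNA miR-150-5p (limma adjusted p = 0.0827) and -0.33 for the myeloid miR-223-3p. In the epithelial list 0 of 5 passed, with miR-200b-3p at 0.61 and miR-141-3p at -0.63 on the log2 scale, and in the striated muscle list 0 of 3, with miR-206-3p at -0.08 and miR-133a-3p at 0.04. An unadjusted limma p under 0.05 occurred in 2 of the smooth muscle and 1 of the leukocyte miRNAs and in 0 of the endothelial, epithelial and striated muscle ones. The share over all tested miRNAs was 20.2%. In these 5 lists edgeR called 0 (5.26% of all tested). DESeq2 called 1, in the leukocyte list (15.1% of the miRNAs that it gave an adjusted p).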

How the data were processed

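Per the labels' protocols, small RNA was selected on a gel from 1.3 µg total RNA, ligated, amplified and sequenced from 1 end for 50 bases on DNBSEQ. Bowtie2, DESeq2 and GRCm38.p6 appear, without role or version, in the submitters' processing notes. The deposited values, called TPM in the table's name, are RPM, scaled by the authors to a total of their choice for each library. All values (100%) were whole reads of 1 implied total per library, within 0.0005 RPM.

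The main test was limma 3.58.1 (R 4.3.3) on log2(RPM + 1) with a variance trend, two-sided, over the 475 miRNAs whose mean reached 1 RPM, with Benjamini-Hochberg adjustment at 0.05. Recovered reads entered edgeR 4.0.16 and DESeq2 1.42.0 as alternatives. Other alternatives were pseudocounts, filters, scalings, a replicate block and left-out libraries. Tables and figures used Python 3.11.15, scipy 1.17.1 and matplotlib 3.10.9. Names matched RefSeq for 867 rows and for 6 of the 7 members.

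Members and lists were chosen with earlier results of these data known. Named miRNAs were all members, the 3 downstream miRNAs, the 2 tested members with the smallest p of each list and the 3 most alike miRNAs per 3p arm; where only a range or a sum is printed for a list, it covers all its rows. Replicates per group numbered 3. Poisson and Wilson intervals cover counting error only, and reads carry no molecular identifiers. The limma confidence intervals rest on how much the libraries vary.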

Additional observations from a re-analysis of the deposited data

How the results depend on the processing

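miR-130b-5p and the summed 3p arms kept their direction and their side of the threshold, or stayed within the spread between libraries, in all alternatives run. DESeq2 called 63 miRNAs in place of 23, and moved miR-130a-3p (0.82) and miR-130b-3p (1.42) past the threshold. Leaving out normal-pressure library 2 with hypobaric library 3 gave 47 calls and log2 changes of 1.23, 1.07 and 0.37 for miR-130a-3p, miR-130b-3p and miR-301a-3p and of -0.10 for miR-130a-5p. Single libraries left out gave 10 (without hypobaric library 2) to 34 calls (without hypobaric library 3), 11 without hypobaric library 1, and log2 changes of 0.67 to 1.28 for miR-130a-3p, 0.77 to 1.33 for miR-130b-3p, 0.36 to 0.48 for miR-130b-5p, -0.03 to 0.20 for miR-130a-5p and -0.15 to 0.18 for miR-301a-3p; the summed 3p arms differed by 21.9 to 51.5 RPM. miR-301a-3p was positive without hypobaric library 3 (0.17) or normal-pressure library 2 (0.18). miR-130a-5p was negative scaled to the miRNA total (-0.032) or to that total without the 10 most abundant miRNAs (-0.056), with median-of-ratios scaling (-0.012), edgeR (-0.028) and DESeq2 (-0.020), and without normal-pressure library 2 (-0.030). The cause of these differences was not tested.

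Same-numbered libraries had deviations correlated at 0.35, -0.47 and -0.29, without a common sign. These values cannot exclude a factor shared by replicate number, and the library descriptions give exposures of 15, 16 and 17 days by that number. With the replicate number as a block 23 miRNAs were called, and the log2 change of miR-130a-3p stayed at 0.90 with limma adjusted p = 0.153. A minimum mean of 10 RPM left out miR-130a-5p and miR-130b-3p. Depth limits miR-301b-3p (2 to 5 reads a library) and miR-301a-5p (3 to 17 reads), for which a difference could not be resolved.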
